A study of Mus musculus with 10 samples.

Results

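The baseline heart transcriptome was read from the control mice of a study in which 3-phosphoinositide-dependent kinase 1 (PDK1, encoded by Pdpk1) was deleted in adipocytes. The controls carried the floxed gene and are labelled PDK1 flox/flox, and nothing in the labels names a Cre transgene for them. Of 10 samples in the series the 5 control hearts, replicates 1 to 5, were used, and the 5 samples labelled A-PDK1KO enter no value below. Mice were 10 to 11 weeks old and were killed in the randomly fed state, and their hearts were frozen in liquid nitrogen before total RNA was sequenced in paired ends. The deposited table lists 11790 genes as FPKM, that is fragments per kilobase of exon scaled to library size, so levels of different genes can be compared per length. With 1 group there is no test, and each value is given per heart or as mean ± SD over the 5 hearts.

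The value of 1 read implied 9249256 to 10713992 counted reads per heart. Between 9671 and 10214 genes reached 1 FPKM, 2648 to 2906 reached 10 FPKM, 363 to 391 reached 100 FPKM and 37 to 40 reached 1000 FPKM. As a check for a library deposited more than once, counts were compared between hearts: the chi-square per gene had a mean of 6.03 to 28.4 and a median of 1.28 to 3.46 over the 10 pairs, and no pair of hearts was counted as 1 sample. The labels number the hearts but do not say that they came from separate litters or preparation days. Replicate 4 stood farthest from the others, with a median absolute log2 difference per gene of 0.16 to 0.19 from each other heart, against 0.11 to 0.15 among the other 4. Its median-of-ratios scaling factor was 1.1 against 0.963 to 0.999, an offset that enters these differences. With that scaling replicate 4 was the highest heart in 22.9% of tested genes and replicate 1 in 22.5%.

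The heart beats without rest and burns mainly fatty acids in mitochondria packed between its contractile fibrils. Thick filaments are made of myosin, thin filaments of actin with tropomyosin and the troponin complex, and calcium released from the sarcoplasmic reticulum switches contraction on. Many of these proteins, and several subunits of the respiratory chain, come as sets of isoforms from separate genes, of which heart muscle uses a particular member. In bulk tissue RNA, fewer cells of a type and less RNA per cell cannot be told apart.

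Transcripts encoded by the mitochondrial genome made up 54.6% ± 2.48 of the summed FPKM (mean ± SD, n = 5). The share was 56.8%, 53.8%, 55.4%, 50.6% and 56.3% in replicates 1 to 5, lowest in replicate 4. Counted as reads, without division by length, it was 37.8% ± 2.94. With these symbols, which start with mt-, kept, 7 genes sufficed for 50% of the summed FPKM in the mean profile. Of these 7 genes only Gm23935, a nuclear entry of 57 bases described below, was not mitochondrial.

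The mitochondrial messages were listed at far from equal levels. The gene mt-Co1 (chrM:5328-6872), which encodes the catalytic subunit of cytochrome c oxidase, held 35.3% ± 1.23 of all mitochondrial FPKM and was the highest entry in the table. It stood at 116854, 100448, 102508, 91735 and 106396 FPKM in replicates 1 to 5. Next came mt-Cytb, the cytochrome b of complex III, at 46667 ± 3529 FPKM, and the complex I subunits mt-Nd1 (43854 ± 2973), mt-Nd2 (29553 ± 1859), mt-Nd4 (18825 ± 930) and mt-Nd5 (15405 ± 1256). The other oxidase subunits mt-Co2 and mt-Co3 were listed at 3183 ± 713 and 2565 ± 572 FPKM. The ATP synthase subunit mt-Atp6 stood at 1145 ± 327.8 FPKM, and mt-Nd6, mt-Nd3, mt-Nd4l and mt-Atp8 stood at 1045 ± 75.6, 617 ± 282, 541 ± 288 and 288 ± 124 FPKM. Nearly all of mt-Co2, mt-Co3, mt-Atp6, mt-Nd3 and mt-Nd4l has a near-identical copy on chromosome 1, described below, so their levels are uncertain. The higher mt-Nd4 has such a copy over 876 bases, and the low mt-Nd6 and mt-Atp8 have no such listed copy. The part of the copies in these differences was not tested.

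The 13 protein-coding mitochondrial genes took 91.2% ± 0.849 of mitochondrial FPKM. The ribosomal RNAs mt-Rnr2 (13420 ± 2781 FPKM) and mt-Rnr1 (7844 ± 1023 FPKM) took 7.20% ± 0.837, with their lowest share, 5.84%, in replicate 4. The 19 transfer RNAs listed took 1.65% ± 0.147, led by mt-Tw, mt-Tm and mt-Tl1 at 1579, 983 and 961 FPKM. In the middle came mt-Ti (340 FPKM), mt-Ts1 (293), mt-Tq (194), mt-Tt (127), mt-Tp (80.4), mt-Te (77.1), mt-Tr (70.6), mt-Tg (39.4) and mt-Ta (17.2). Those of lowest mean were mt-Tc (11.2 FPKM), mt-Tn (8.75), mt-Ty (5.89), mt-Td (2.42), mt-Tv (1.98) and mt-Ts2 (0.351), while mt-Tl2 was listed at 0 in 4 hearts and at 169 FPKM in replicate 4.

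Some mitochondrial sequence is also present on chromosome 1. A block of 7 pseudogenes at chr1:24611535-24616197 (GRCm38, the assembly of mm10) copies mitochondrial sequence almost letter for letter. Over 483 aligned bases, Gm29216 (chr1:24615706-24616197, minus strand) differs from mt-Co1 at 1 base. A stretch of 120 bases that holds this base is shown for both, from GENCODE transcripts, with the differing base in capitals.
Gm29216: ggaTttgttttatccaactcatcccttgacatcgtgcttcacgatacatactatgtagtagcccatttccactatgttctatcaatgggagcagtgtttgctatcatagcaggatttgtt
mt-Co1: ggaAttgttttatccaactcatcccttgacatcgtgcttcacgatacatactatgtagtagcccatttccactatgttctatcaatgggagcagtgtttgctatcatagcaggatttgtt
Apart from that base the aligned sequences are the same. Levels of the mitochondrial gene and of its copy are therefore uncertain.

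Gm29216 was listed at 1994, 7701, 3153, 1382 and 3627 FPKM in replicates 1 to 5, a mean of 3571 ± 2476, and ranked between 2 and 16 among entries without mt- symbols. On the log2(FPKM + 1) scale its SD over hearts was 0.94 and that of mt-Co1 0.13. The pairs Gm28661 and mt-Co2, Gm10925 and mt-Atp6, and Gm28437 and mt-Co3 are identical over 681, 678 and 783 bases. In each of these pairs the summed reads varied less (SD 0.19, 0.26 and 0.21) than either gene alone (0.27 and 0.33 for the first pair, 0.41 and 0.50 for the second, 0.24 and 0.31 for the third). Summing did not bring mt-Nd4l and its copy Gm10222 together to the same extent: the SD of the sum was 0.66, against 0.96 and 0.26. Over the genome, 11 entries copied a mitochondrial transcript (at least 95% identity over at least 80% of their length) and took 3.285% ± 0.9545 of FPKM without mt- symbols, highest in replicate 2 at 4.93%. Counting them as mitochondrial moved the mitochondrial share to 56.1% ± 2.50. Reads left out of the deposited values, if any, are not in this share.

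Once mt- symbols were set aside, the highest entry was no messenger RNA. Gm23935 (chr16:11144125-11144181, plus strand) is annotated as a microRNA of 57 bases and was listed at 15000, 15199, 11427, 12222 and 14939 FPKM in replicates 1 to 5. It held 5.66% ± 0.744 of FPKM but 0.127% of reads, from 6129 to 9123 reads per heart, and ranked 90 by reads. Its sequence is printed because 2 other entries, Gm24270 (chr9:56223715-56223771, minus strand) and Gm24245 (chr4:139338304-139338360), share all 57 bases. A read that lies wholly within these bases has no unique place among the 3.
Gm23935: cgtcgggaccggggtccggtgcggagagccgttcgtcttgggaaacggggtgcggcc
Gm24270: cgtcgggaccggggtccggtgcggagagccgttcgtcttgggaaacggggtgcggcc
Gm24270 was listed at 501 ± 52.3 FPKM. The value of 1 read in FPKM is large for so short an entry, which is why shares of FPKM and of reads part so widely here. A ribosomal RNA entry on chromosome 17, CT010467.1, stood at 1319 ± 352 FPKM and was highest in replicate 1 (1885).

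Among messenger RNAs the list was led by Mb, which encodes the oxygen-storing protein myoglobin. Mb (chr15:77015487-77050670) stood at 7862, 7446, 7345, 7757 and 7535 FPKM and held 3.12% ± 0.121 of FPKM without mt- symbols. Fabp3 (chr4:130308595-130315463), the fatty acid-binding protein of heart muscle, followed at 5194, 4928, 4749, 4728 and 4712 FPKM. Myl2 (chr5:122100951-122113472), the regulatory myosin light chain of ventricles, stood at 4099, 4467, 4596, 4535 and 4819 FPKM. Mb ranked 2 or 3 in every heart, Fabp3 3 or 4 and Myl2 between 3 and 5, so the order of these leaders was nearly the same from heart to heart. Fabp3 was higher than Myl2 in 4 of 5 hearts, with means of 4862 ± 205 and 4503 ± 262.

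Actc1 (chr2:114047282-114053548), the cardiac alpha actin, stood at 3255, 4176, 4147, 4239 and 4068 FPKM, lowest in replicate 1. Further contractile genes among the 20 highest were Myl3 (essential light chain, 3041 ± 103 FPKM), Tnni3 (troponin I, 2157 ± 94.2), Myh6 (alpha myosin heavy chain, mean 1766, from 1276 to 2176), Tnnc1 (troponin C, 1760 ± 139) and Tpm1 (tropomyosin, 1283 ± 60.9). Calcium cycling was represented by the pump gene Atp2a2 (SERCA2, 1546 ± 166 FPKM) and by Pln, its inhibitor phospholamban (1217 ± 77.4). Mitochondrial proteins encoded in the nucleus were Slc25a4, the ADP and ATP exchanger (2310 ± 76.5 FPKM), and the oxidase subunits Cox6a2 (1953 ± 150), Cox8b (1876 ± 85.4), Cox7a1 (1498 ± 81.6) and Cox4i1 (1180 ± 69.8). Gm28661, the copy of mt-Co2, ranked 16, at 1491 ± 260 FPKM.

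The ranking by reads differed, since long messages yield more fragments. Myh6 was highest by reads, with 1.91% ± 0.291 of reads without mt- symbols, ahead of Mb (1.83% ± 0.0986), Atp2a2 (1.52% ± 0.161), Myl2 (1.42% ± 0.0926) and Tpm1 (1.35% ± 0.0733). Fabp3 ranked 13 by reads and Cox8b 124. Titin, encoded by Ttn, the giant spring of the sarcomere, had 18.3 FPKM, yet ranked 18 by reads with 0.345% ± 0.0392 of them.

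**Figure D1:**
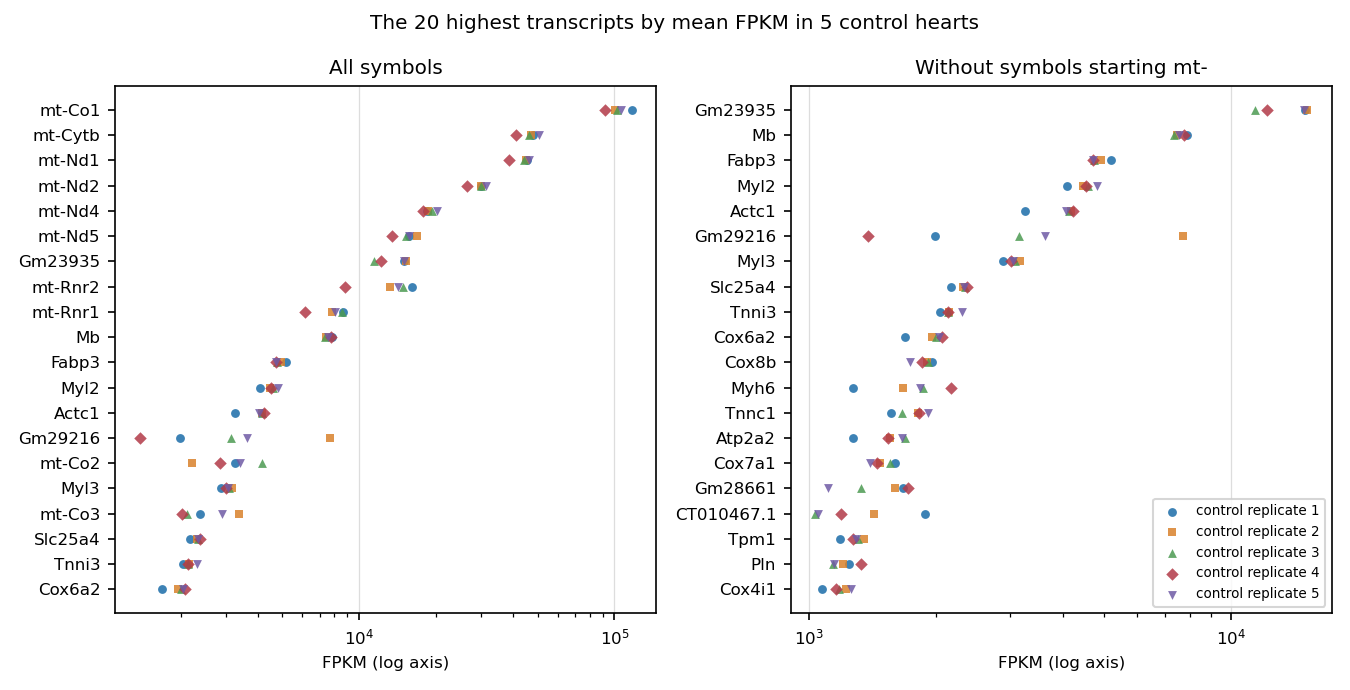
FPKM of the 20 highest transcripts by mean in each of the 5 control hearts (symbols by replicate, log axes), with all symbols on the left and without symbols starting mt- on the right. Most genes sit close together across hearts, while Gm29216 runs from 1382 to 7701 FPKM.

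Without mt- symbols, protein-coding genes held 84.5% ± 1.58 of FPKM and 96.9% ± 0.352 of reads. Entries annotated as microRNAs held 6.08% ± 0.767 of FPKM, nearly all of it Gm23935, and 0.141% of reads. Processed pseudogenes, which are copies of messages pasted back into the genome, held 3.90% ± 0.204 of FPKM over 705 entries. Unprocessed pseudogenes, of which the chromosome 1 block is the main part, held 3.31% ± 0.952. Long intergenic RNAs held 0.355% ± 0.0374.

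The nuclear part of the transcriptome was also concentrated in few genes. The 10 highest entries held 19.6% ± 1.39 of FPKM without mt- symbols and the 20 highest 25.8% ± 1.31. In the mean profile 3 genes held 10%, 19 held 25%, 151 held 50%, 847 held 75% and 3014 held 90%. The number for 50% was 150, 136, 153, 168 and 142 in replicates 1 to 5, so replicate 4 was the least concentrated heart. Among protein-coding genes alone the 10 highest held 16.6% ± 0.337 of their sum and 170 genes held 50%, from 162 in replicate 5 to 180 in replicate 4. As reads, 366 genes were needed for 50%.

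**Figure D2:**
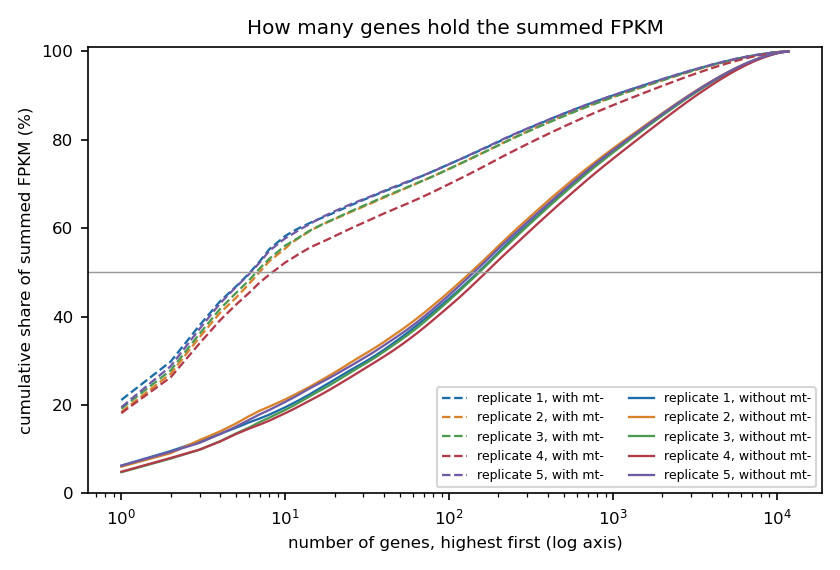
Cumulative share of summed FPKM (vertical axis, percent) against the number of genes taken from the highest down (horizontal log axis), 1 line per control heart, with mt- symbols (dashed) and without them (solid). The grey line marks 50%, reached at 7 to 9 genes with mt- symbols and at 136 to 168 genes without them.

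Genes of the sarcomere and its Z-disc, 48 of 49 list members being in the table, formed the largest of 21 functional groups by share. They held 9.18%, 10.1%, 10.5%, 10.5% and 10.7% of FPKM without mt- symbols in replicates 1 to 5, lowest in replicate 1. The 93 nuclear subunits of the 5 respiratory complexes, with cytochrome c, together held 12.95% ± 0.248. Of these, complex IV held 4.64% ± 0.118, complex I 3.465% ± 0.0797, ATP synthase 2.89% ± 0.0664, complex III 1.76% ± 0.0542 and complex II 0.427% ± 0.0117. Ndufa4 is counted in both complex IV and complex I, and complex I held 3.246% without it. As a share of reads the order of the large sets turned around, with 12.3% ± 0.537 for the sarcomere and 8.10% ± 0.281 for the respiratory subunits, whose messages are short.

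Members of these groups outside the 20 highest were named after their values were seen, as the highest of their group. Energy transfer and oxygen storage (Mb, Slc25a4, the creatine kinases Ckmt2 and Ckm, and others) held 5.17% ± 0.116, of which 2.05% remained without Mb. Fatty acid uptake and oxidation held 3.885% ± 0.130. Fabp3 led it, and after Fabp3 came Ech1 (556 ± 32.6 FPKM) and Acaa2 (537 ± 59.5), both enzymes of beta-oxidation, the fatty acid transporter gene Cd36 (500.2 ± 37.5) and the lipoprotein lipase gene Lpl (487 ± 55.3). Glycolysis and lactate held 1.65% ± 0.151 and ran from 1.40% in replicate 1 to 1.76% in replicate 3. The tricarboxylic acid cycle held 1.47% ± 0.103, with Idh2, mitochondrial isocitrate dehydrogenase, highest at 532 ± 88.4 FPKM. Calcium handling held 1.92% ± 0.0831.

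Cytosolic ribosomal proteins held 4.69% ± 0.204 over 96 genes, led by Rplp1 (898 ± 141 FPKM), and mitochondrial ribosomal proteins 0.754% ± 0.0189 over 77 genes. Small heat shock proteins and chaperones held 1.38% ± 0.0937, led by the lens and muscle chaperone gene Cryab (719 ± 69.7 FPKM), and translation factors 1.18% ± 0.0535. The antioxidant set held 0.612% ± 0.0120, led by Gpx4 (327 ± 16.95 FPKM), the proteasome 0.566% ± 0.0161, and ferritins and thymosins 0.369% ± 0.00275. The extracellular matrix held 0.237% ± 0.0100, with Dcn (decorin) at 90.4 ± 7.79 FPKM. Haemoglobins, messages of red blood cells, held 0.578%, 0.0975%, 0.0370%, 0.0110% and 0.0312% in replicates 1 to 5. They were the group whose hearts lay farthest apart, with replicate 1 above all others.

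Breakdown of branched-chain amino acids, the subject of the study, held 0.466% ± 0.0252 over 25 genes, of which 0.377% remained without Oxct1. Its highest members were Oxct1 (succinyl-CoA transferase of ketone use, 217 ± 15.6 FPKM), Bckdha (a subunit of the branched-chain ketoacid dehydrogenase, 143 ± 16.1), Hsd17b10 (112 ± 3.56), Acat1 (104 ± 9.08) and Dld (103 ± 3.8). The transaminase gene Bcat2, the first step, stood at 19.2 ± 1.83 FPKM. The kinase gene Bckdk, which restrains the dehydrogenase, stood at 23.02 ± 1.49 FPKM and the phosphatase gene Ppm1k, which frees it, at 10.4 ± 1.502. None of the 25 reached an SD of 0.5 on the log2(FPKM + 1) scale, which 0.665% of protein-coding genes reached, so a count of 0 is no result about this group.

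**Figure D3:**
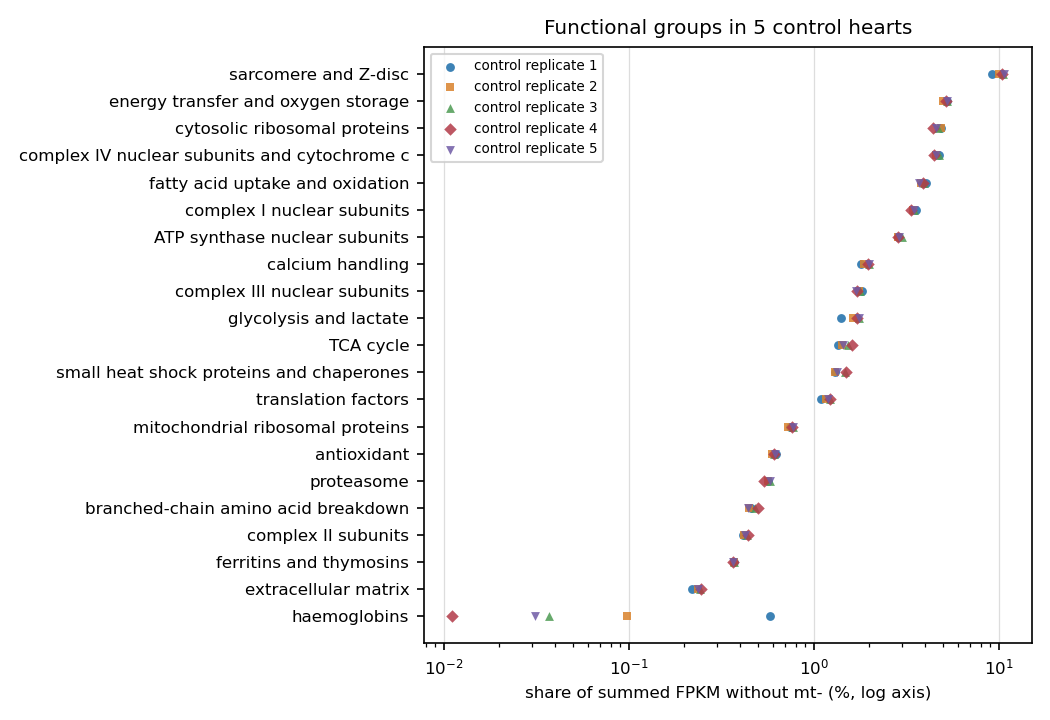
Share of summed FPKM without mt- symbols (percent, log axis) held by each of 21 functional groups in the 5 control hearts, symbols by replicate. Hearts nearly coincide in most groups, from 9.18% to 10.7% for the sarcomere, whereas haemoglobins spread from 0.0110% to 0.578%.

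Isoform families were read for the member with the largest share of family FPKM in this bulk heart RNA. Some families hold genes of different roles, such as the regulatory Myl2 and the essential Myl3 among light chains. A share in such a family is not a choice between isoforms. Of 63 families 60 had at least 2 members in the table. The leading member held over 90% of the family FPKM in 25 of them, between 50% and 90% in 29, and 50% or less in 6. The same member led in all 5 hearts in 57 families. The superoxide dismutases and laminin alpha were among the exceptions.

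In the thick filament Myh6 held 96.4% ± 1.12 of myosin heavy chain FPKM. It stood at 1276, 1672, 1868, 2176 and 1840 FPKM, while the slow beta isoform Myh7 (chr14:54970684-54994626) stood at 45.7, 36.8, 21.3, 51.0 and 22.0 FPKM. The ratio of Myh6 to Myh7 ran from 27.9 in replicate 1 to 87.7 in replicate 3, a range set by both genes. Of the other myosin heavy chain genes, Myh14, Myh9, Myh11 and Myh10 had means of 16.5, 5.13, 3.14 and 1.78 FPKM. Myl2 held 58.2% ± 1.12 and Myl3 39.3% of light chain FPKM. Antisense genes share exon bases with Myh6 (Gm49130, 1.70% of its exon length) and with Myh7 (Mhrt, 5.62%, and Gm31251, 6.07%), so a small part of those reads is uncertain where strand is not known.

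In the thin filament Actc1 held 90.15% ± 1.31 of actin FPKM. The skeletal actin Acta1, also used by heart muscle, held 6.88% and varied more between hearts, at 229, 363, 365, 189 and 379 FPKM, with replicates 1 and 4 low. Troponin T, I and C came from Tnnt2 (99.2% ± 0.0419), Tnni3 (just under 100%, with Tnni2 at 0.603 FPKM) and Tnnc1, and tropomyosin from Tpm1 (97.8% ± 0.274). Mybpc3, the cardiac myosin-binding protein C, held 99.2% ± 0.128 and Actn2, the sarcomeric actinin, 96.1% ± 0.422. The fast skeletal genes Myh1, Myh2, Myh4, Tnnt3 and Tnnc2 are not among the rows used here.

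Calcium cycling rested on Atp2a2 (99.85% ± 0.0258 of SERCA pump FPKM), Ryr2, the only ryanodine receptor listed, and Casq2 (99.2% ± 0.316). Among the small membrane proteins that tune SERCA, Pln held 95.3% ± 0.927. The activator gene Strit1 stood at 30.3, 29.2, 17.5, 11.9 and 11.5 FPKM, and the inhibitor gene Sln at 0, 10.9, 0, 0 and 7.58 FPKM, detected in replicates 2 and 5 alone. A count of 0 allows up to 3 reads, which is 0.212 to 0.246 FPKM for Sln in these hearts, for counting error only. Connexins were led by Gja1 (67.0% ± 3.44).

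Several respiratory subunits have a muscle and a general form. The muscle forms led in Cox6a2 (95.1% ± 0.389, against Cox6a1), Cox7a1 (76.4% ± 1.33, against Cox7a2 and Cox7a2l) and Cox8b (90.7% ± 0.405, against Cox8a). Cox4i1 (99.2% ± 0.117) and Cox6b1 (99.8% ± 0.0502) led their families over the lung form Cox4i2 and the testis form Cox6b2. Slc25a4 held 95.4% ± 0.246 of the adenine nucleotide translocases listed, and Vdac1 73.7% ± 1.20 of the anion channels. Of the 3 genes for the c subunit of ATP synthase, Atp5g3 held 68.6% ± 0.841, Atp5g1 19.0% and Atp5g2 12.4%.

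Among fuel enzymes several families were shared between members. Ldhb held 85.5% ± 0.537 of lactate dehydrogenase FPKM and Ldha 14.0%. Ckmt2, the creatine kinase inside mitochondria, held 61.1% ± 3.03 and the cytosolic Ckm 38.3%. As a share of reads, however, Ckm led. The leading member also differed by reads in the AKT kinases (Akt1 per length, Akt2 by reads), the superoxide dismutases (Sod1, Sod2) and laminin alpha (Lama5, Lama2). Slc2a4, the insulin-responsive glucose transporter GLUT4, held 86.9% ± 1.88 of the glucose transporters and Slc2a1 3.85%. Pfkm held 94.3% ± 0.301, Aldoa 99.7% ± 0.133, Eno3 97.9% ± 0.201 and Pgam2 94.2% ± 0.899 of their glycolytic families. Pygm and Pygb, muscle and brain glycogen phosphorylase, held 60.1% ± 2.21 and the remainder.

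Fabp3 held 97.9% ± 0.268 of the fatty acid-binding proteins and Acsl1 92.2% ± 0.715 of the long-chain acyl-CoA synthetases. The carnitine palmitoyltransferases are a case apart. The muscle gene Cpt1b (chr15:89416405-89425863) was listed at only 0.205 to 0.798 FPKM, below Cpt1a at 4.63 ± 0.593. However, 81.4% of the exon bases of Cpt1b also belong to Gm44502, a readthrough gene on the same strand that is not among the rows used here, so the listed level of Cpt1b is uncertain. Pdk4, a kinase that shuts off pyruvate oxidation, led its family with 71.1% ± 7.58 and was spread widely, at 311, 521, 382, 264 and 529 FPKM. Its share was lowest in replicate 4 (59.0%), where Pdk2 was highest (157 FPKM).

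Natriuretic peptides, hormones that the heart secretes, were split between Nppb (648, 504, 492, 507 and 563 FPKM) and Nppa (487, 325, 214, 357 and 492 FPKM). Nppb was the higher in every heart and held 59.9% ± 6.07. Nppa had the wider spread, with an SD of log2(FPKM + 1) of 0.49.

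**Figure D4:**
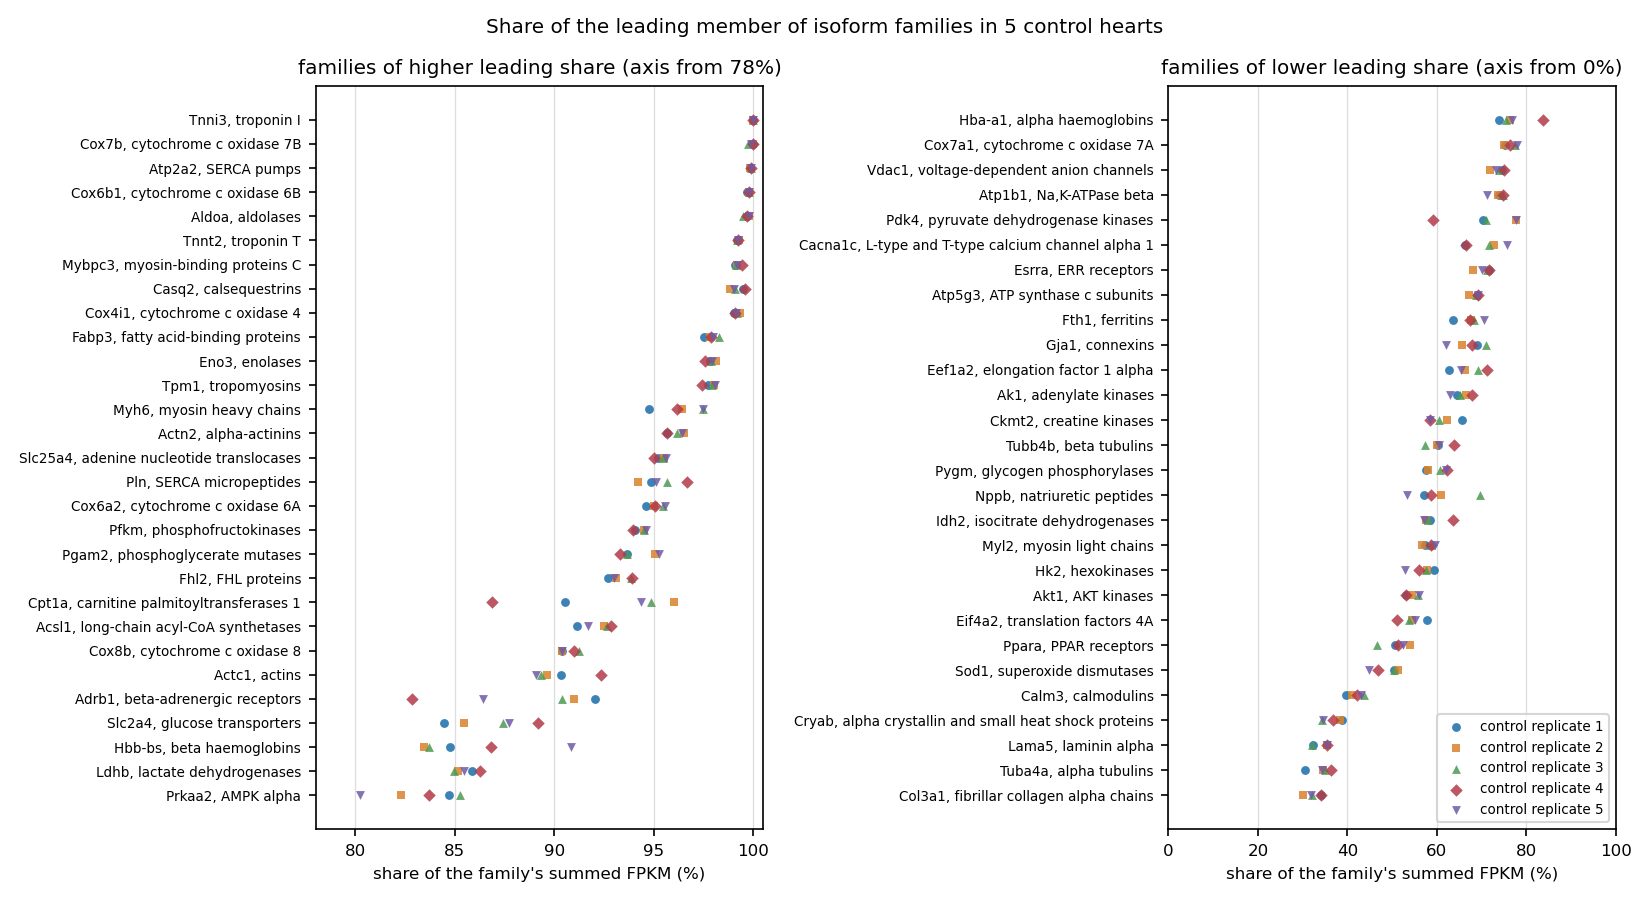
Share of family FPKM (percent) held by the leading member of isoform families in the 5 control hearts, symbols by replicate. Families of higher leading share are on the left (axis from 78%) and of lower share on the right (axis from 0%). Replicate 4 stands apart for Pdk4 at 59.0%, and hearts nearly coincide for Tnnt2 and Tpm1.

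Promoters of the contractile genes were searched for short elements. In RefSeq windows of 250 bases before to 50 after the start site (GRCm38.p6), 40 of the 48 sarcomere genes had a promoter. The CArG box, the binding element of serum response factor, was searched on both strands and occurred in 10 of their 53 promoters (18.9%), those of Acta1, Actc1, Fhl2, Ldb3, Myl3, Myl7, Myom1 and Nebl. It occurred in 1.63% of all 32851 promoters, in 1.35% of those of genes in the table and in 0 of 76 promoters of respiratory subunits. The MEF2 box, searched likewise, occurred in 15.1% of sarcomere promoters, 3.19% of all promoters and 0 of those 76. The letters TATAAA, on either strand, occurred in 18.9% of sarcomere promoters, 13.6% of all, 7.40% of those of genes in the table and 11.8% of those of respiratory subunits. The promoters of Actc1, the actin of the thin filament, and of Myl7, the most variable messenger RNA, are shown with these elements in capitals (the CArG box in both, TATAAA in Actc1).
Actc1, chr2:114052826-114053125, minus strand: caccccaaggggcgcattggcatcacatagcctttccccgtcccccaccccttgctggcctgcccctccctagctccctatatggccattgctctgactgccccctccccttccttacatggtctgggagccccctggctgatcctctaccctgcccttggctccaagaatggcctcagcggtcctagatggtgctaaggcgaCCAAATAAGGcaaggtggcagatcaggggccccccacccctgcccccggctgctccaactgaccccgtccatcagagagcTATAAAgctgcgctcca
Myl7, chr11:5898733-5899032, minus strand: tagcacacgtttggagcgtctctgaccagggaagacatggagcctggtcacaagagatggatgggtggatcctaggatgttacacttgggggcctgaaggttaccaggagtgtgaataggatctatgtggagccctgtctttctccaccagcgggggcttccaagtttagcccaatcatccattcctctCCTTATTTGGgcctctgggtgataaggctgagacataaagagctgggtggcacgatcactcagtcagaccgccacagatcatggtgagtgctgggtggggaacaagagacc
A match of letters is a description of these windows and not a measured binding site.

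Markers of cell types showed what the tissue held. Members of the ventricular cardiomyocyte list, 9 of 10 in the table, summed to 14689 to 17529 FPKM. None of the 9 reached an SD of 0.5, against 0.665% of protein-coding genes, so this count of 0 is no result about the list. All 15 endothelial markers were listed and summed to 939 to 1016 FPKM, with Cd36 and Aqp1 (123 ± 12.5 FPKM) highest, of which Cd36 is also a muscle gene. The 13 fibroblast markers summed to 485 to 573 FPKM, 11 macrophage markers to 151 to 186 FPKM and 9 endocardial and valve markers to 22.8 to 30.6 FPKM. The 12 smooth muscle and pericyte markers summed to 584 to 772 FPKM, highest in replicate 4, but 407 to 527 FPKM of this was Des (desmin), which is also an abundant heart muscle gene. In replicate 4 Myh11 stood at 6.19 FPKM, Tagln at 23.8 and Acta2 at 32.9, against 2.09 to 2.65, 10.1 to 15.3 and 15.4 to 23.6 FPKM in the other hearts.

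Other cell types left few messages. Of 15 lymphocyte markers only Igkc (1.84 ± 0.955 FPKM) and Ighm were listed, of 11 mesothelial markers only C3, of 11 markers of Schwann cells and neurons 2 and of 7 granulocyte markers 3, the members of these last lists being under 1 FPKM on average. Conduction system markers summed to 3.14 to 4.87 FPKM, with 4 of 9 listed, cartilage had Comp alone (0.907 ± 0.593), and thymus and thyroid had 0 of 7. The adipocyte genes Adipoq, Plin1, Lep and Cidec are not among the rows used here, and Cfd, which fat cells secrete, had 0 to 11 reads per heart. Fabp4 (97.5 ± 17.04 FPKM) is also an endothelial gene. Of brown fat markers 5 of 9 were listed, and these, among them Cox7a1, Cox8b and Fabp3, are heart genes as well, while Ucp1 is not among the rows used here. Of 12 skeletal muscle markers 4 were listed, with Pvalb and Tnni2 under 1 FPKM and Acta1 and Ckm, which heart muscle also uses, at 189 FPKM or more in each heart.

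Most genes hardly differed between the 5 hearts. The SD of log2(FPKM + 1) was computed for the 9865 genes whose mean reached 1 FPKM. Its median was 0.149, where the counting of reads alone gives a median of 0.0815, and the median SD beyond counting was 0.119. The median SD fell from 0.16 for genes at 1 to 2 FPKM to 0.12 for those at 1000 FPKM or more. The median SD beyond counting did not fall, at 0.1128 and 0.1155 in these sets. A gene was called variable at an SD of at least 0.5. This size was reached by 244 of 9865 genes, 2.47%. Among protein-coding genes without mt- symbols it was reached by 59 of 8868, 0.665%.

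The steadiest genes among those with a mean of at least 10 FPKM were Sdf4, Mbd2, Ccni, Map1lc3a, Creg1, Psma5, Chchd2, Klhdc2, Strap and Ssr3. Their SDs ran from 0.013 to 0.024, and in 9 of the 10 the SD was below that of counting. Sdf4, a calcium-binding protein of the Golgi apparatus, stood at 13.4, 13.7, 13.4, 13.5 and 13.6 FPKM. Map1lc3a, a protein of autophagosome membranes, stood at 389, 391, 393, 403 and 394 FPKM, a range of 389 to 403 FPKM over the 5 hearts.

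The 30 highest SDs were a mixed set. On average 18 of these entries had fewer than 50 reads per heart, among them the microRNA genes Mir3100, Mir133a-1, Mir208a, Mir99a and Mir7666 (at most 7 reads in any heart) and the transfer RNAs mt-Td and mt-Tv. Such entries were listed at 0 in some hearts and at several FPKM in others where 1 read of so short a gene is worth more than 1 FPKM. Of the 30, 11 were predicted genes, most of them also under 50 reads. Of 27 tested microRNA entries 18 were variable, and of 472 processed pseudogenes 95 (20.1%), against 2.47% of all tested genes.

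Blood and atrial genes headed the remainder. Hbb-bs (chr7:103826534-103828096), a beta globin, stood at 758, 132, 48.2, 16.4 and 45.9 FPKM in replicates 1 to 5, an SD of 2.06. Hba-a1 (358, 66.9, 23.03, 7.14 and 18.4 FPKM), Hba-a2, Hbb-bt and Alas2, which encodes the heme synthesis enzyme of red cell precursors, were likewise highest in replicate 1 and lowest in replicate 4. Over the red blood cell list, with 7 of 9 markers listed, 5 of 6 tested genes were variable, against 0.665% of protein-coding genes. Summed levels of the list ran from 31.7 FPKM in replicate 4 to 1400 in replicate 1. The part of blood in other differences was not tested.

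Myl7 (chr11:5896637-5898782), the regulatory light chain of atrial myosin, stood at 0, 85.9, 0, 0.877 and 71.4 FPKM, from 0, 514, 0, 5 and 451 reads. Its SD of 3.31 was the highest of any messenger RNA. The atrial light chain gene Myl4 (0.140, 13.7, 0.206, 0.134 and 8.76 FPKM), Sln and Dkk3 (0.805, 6.08, 0.854, 0.770 and 4.11 FPKM) were high in the same replicates, 2 and 5. Hamp, which encodes the iron hormone hepcidin, was highest there too, at 6.98 and 1.37 FPKM, from 29 and 6 reads. Nppa, an atrial gene in the adult, did not follow this order, as it was high in replicates 1 and 5. Of the 16 atrial markers 13 were tested and 4 were variable, against 0.665% of protein-coding genes. Their median SD was 0.32, against 0.149 over all tested genes. Gja5 of this list did not follow replicates 2 and 5 either (1.04, 1.03, 1.46, 1.46 and 1.19 FPKM). The whole list summed to 682, 664, 439, 590 and 793 FPKM in replicates 1 to 5. Bmp10, Dhrs9 and Cpne5 are not among the rows used here.

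Many variable entries were near-identical copies of other genes. Of the 8499 genes with at least 50 reads on average, 64 (0.753%) were variable. Among genes in the table, a protein-coding transcript of at least 97% identity, over 200 bases or 50% of the length, was found for 29 of the 64. The gene H3f3c (chr2:119665626-119666036), a copy of the histone gene H3f3a, stood at 1.84, 0.720, 35.4, 2.77 and 30.7 FPKM, an SD of 2.06. It differs from H3f3a (chr1:180800832-180813943) at 4 of 411 aligned bases, and 120 bases that hold 3 of these are shown with the differing bases in capitals.
H3f3c: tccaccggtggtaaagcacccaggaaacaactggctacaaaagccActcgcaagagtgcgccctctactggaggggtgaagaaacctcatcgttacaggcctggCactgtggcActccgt
H3f3a: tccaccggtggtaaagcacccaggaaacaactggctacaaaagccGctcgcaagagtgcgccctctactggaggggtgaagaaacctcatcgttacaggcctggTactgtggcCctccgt
H3f3a itself had an SD of 0.15, and the summed reads of the pair had an SD of 0.075.

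In further pairs of copies the sum also varied less than either gene, and 2 of these pairs are given as examples. Rps27a-ps2, a copy of the gene for ubiquitin fused to ribosomal protein S27a, had an SD of 1.31 and Rps27a one of 0.47, but their sum one of 0.30. Rps27 and Rps27rt, identical over 221 bases, had SDs of 0.62 and 0.79 and a sum of 0.25. The summed reads had an SD under 0.5 for 25 of the 29 variable genes with such a match. Such a sum follows the more abundant gene where that gene holds most of the reads, so single sums are given for few pairs. The part of this in the pairs shown, H3f3c and H3f3a included, was not tested. Summing did not lower the spread of Hba-a1 and Hba-a2 (sum 2.14) or of the heat shock genes Hspa1a and Hspa1b (sum 1.12) below 0.5, as both genes of each pair had high SDs.

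Such matches were sought only among protein-coding transcripts of genes in the table, so copies among pseudogenes or unlisted genes were not searched for. Setting aside 5 mt- symbols and the copy Gm29216 left 29 variable genes with at least 50 reads and no such match. These 29, with 26 protein-coding genes among them, are named here after their values were seen. Next to blood and atrial genes they held Nr4a1, an early-response nuclear receptor, at 9.49, 2.42, 7.54, 11.0 and 5.16 FPKM, and Per1, a clock gene, at 5.26, 1.54, 5.68, 8.65 and 3.53 FPKM. Both were lowest in replicate 2 and highest in replicate 4. Irf2bp2 and the signalling regulator gene Rgs2 were also low in replicates 2 and 5. Nrgn, which platelets express, was also highest in replicate 1 (10.1, 4.41, 1.32, 1.64 and 0.578 FPKM), and the platelet factor gene Pf4 was highest in replicate 1 (15.5 FPKM). Irx1, a homeobox transcription factor, stood at 1.24, 4.33, 5.19, 2.17 and 0.713 FPKM, and Hmox1, heme oxygenase, at 12.6, 21.4, 9.10, 5.61 and 12.6. Myh7 and its antisense transcript Mhrt (56.5, 32.1, 51.8, 71.4 and 81.3 FPKM) were both in this set and had different orders of hearts. Of the Mhrt exon bases, 39.9% are shared with Myh7 on the other strand. The level, spread and order of Mhrt are therefore uncertain where strand is not known.

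**Figure D5:**
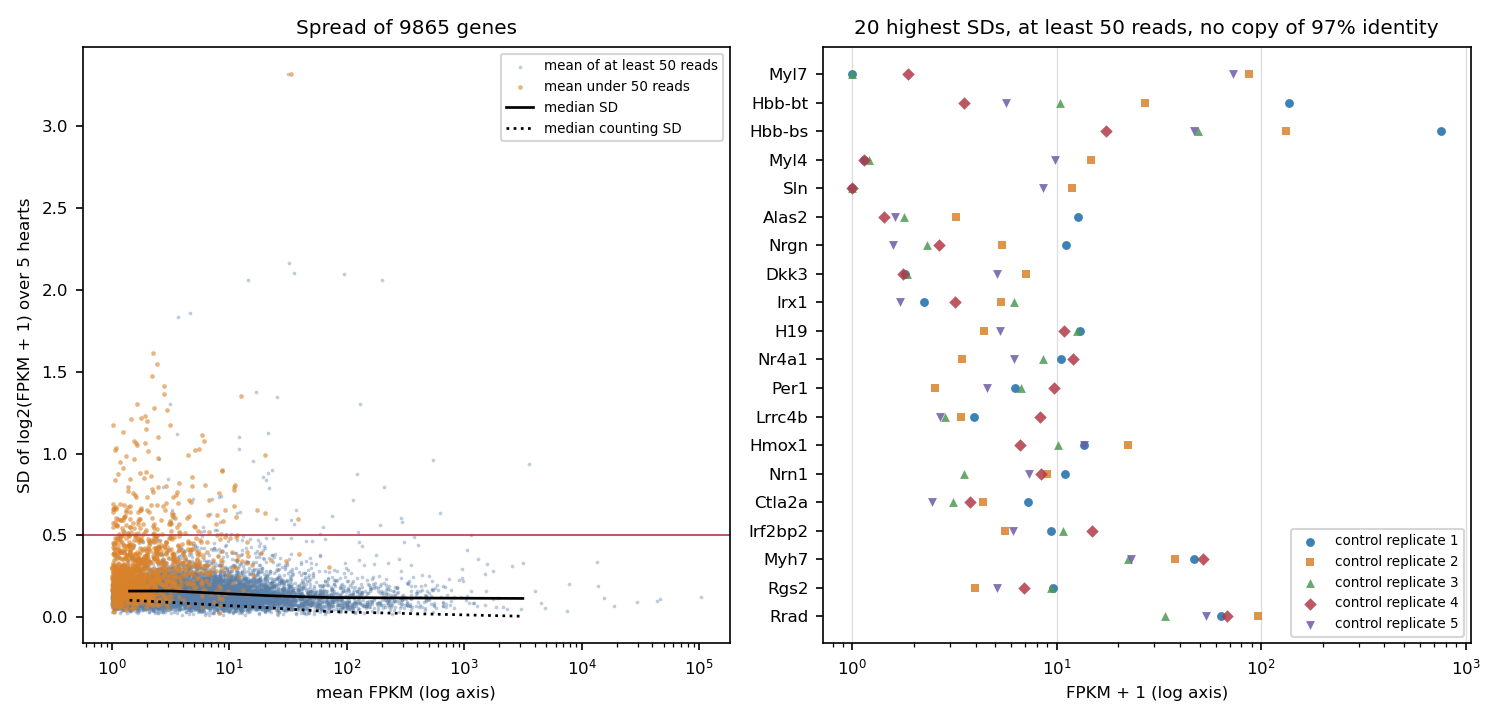
Left, SD of log2(FPKM + 1) over the 5 control hearts against mean FPKM (log axis) for 9865 genes, coloured by whether the mean is at least 50 reads, with the median SD (solid) and the median counting SD (dotted) and a red line at 0.5. Right, FPKM + 1 (log axis) per heart for the 20 named genes of highest SD with at least 50 reads. Genes with a protein-coding match of 97% identity among listed genes are left out, and other copies were not searched for. Myl7, Myl4, Sln and Dkk3 are high in replicates 2 and 5, and the globin genes and Alas2 in replicate 1.

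Lists of genes known to respond to time of day, handling or diet were read against 0.665% variable among protein-coding genes, since their tested members are protein-coding, and against a median SD of 0.149 over all tested genes. In the circadian list 1 of 18 tested genes, Per1, was variable, with a median SD of 0.23. Dbp stood at 6.25, 5.57, 5.79, 12.5 and 6.89 FPKM, and the next in spread were Nr1d1 (16.5 ± 4.67 FPKM) and Bhlhe40 (6.36 ± 1.74). Immediate early genes had 2 of 21, Nr4a1 and Fos (1.40 ± 0.807 FPKM), with a median SD of 0.25. Egr1 and Nr4a3 followed with SDs of 0.46 and 0.32. Genes induced by glucocorticoids had a median SD of 0.33, with 1 of 15 variable. After Per1 came Tsc22d3 (18.4, 9.68, 17.8, 19.8 and 9.78 FPKM), Ddit4 (73.8, 35.8, 83.3, 60.7 and 75.5 FPKM) and Pdk4.

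Targets of the fatty acid receptor PPAR had 0 of 13 variable and a median SD of 0.20, led by Pdk4 (0.44), Acot2 (0.39) and Angptl4 (0.38). In the heat shock list Hspa1b (8.56, 12.8, 24.1, 2.18 and 12.7 FPKM) and Hspa1a (10.9, 17.2, 30.6, 4.25 and 16.4 FPKM) were the 2 of 16 that were variable. Both were highest in replicate 3 and lowest in replicate 4, and Hsp90aa1 and Dnaja1 followed with SDs of 0.29 and 0.28. Cardiac stress genes had 1 of 12, Myh7, and a median SD of 0.28, with Nppa (0.49), Acta1 (0.46) and Xirp2 (0.41) next. Interferon and antigen presentation genes had 0 of 20 and a median SD of 0.17, led by Isg15 (8.77 FPKM in replicate 1 and 3.78 to 5.58 in the others).

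Genes of the endoplasmic reticulum stress response had 0 of 19 and a median SD of 0.16, hypoxia and angiogenesis genes 0 of 13 and 0.18, with Egln3 widest at 24.1 ± 6.25 FPKM. Of 20 cell cycle genes 3 were listed and Pcna alone was tested, with an SD of 0.15. Extracellular matrix, proteasome and each of the 5 nuclear respiratory groups had 0 variable members, with median SDs of 0.057 to 0.16. With 0.665% of protein-coding genes variable, a count of 0 is no result about any of these lists.

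No single heart was the outlier for all variable genes. Of the 244, replicate 1 was highest in 66, replicate 2 in 53, replicate 3 in 49, replicate 4 in 53 and replicate 5 in 23, and replicate 5 was lowest in 83. Over all 9865 tested genes replicate 4 was highest in 4695, 47.6%. It also had the lowest mitochondrial share and the highest number of genes at 1 FPKM or more. With median-of-ratios scaling it was highest in 22.9%. With FPKM rescaled to the same sum without mt- symbols and haemoglobins it was highest in 39.4%. The count of variable genes was 245 and 239 under these scalings, 227 and 230 of them among the 244.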

How the data were processed

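RNA of the 5 control hearts was used. The deposited values are FPKM per gene. Per the labels' protocols read quality was checked with FastQC 0.11.7, and per the submitters' processing notes the authors used Trimmomatic 0.38, HISAT2 2.1.0, featureCounts 1.6.3 and the mm10 build. Not given in the sources used here are the annotation, strand setting, library kit, sex and batch. With GENCODE M21 exon lengths, matched for 11785 of 11790 genes, 98.4% of values above 0 were whole reads within 0.05 read, which gave each heart's depth and the reads behind each value. Depth limits the precision through counting error, which was computed from these reads.

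Spread was the SD of log2(FPKM + 1), with a pseudocount of 1, over genes whose mean reached 1 FPKM, and a gene was called variable at 0.5 or more. Sequence copies were found with BLAST+ 2.17.0. Python 3.11.15, pandas 2.3.3 and numpy 2.4.6 were used, and the spread calculation was checked on simulated data. With 1 group no comparison was tested and no p-value was computed. Dixon's criterion was used to find hearts that stood apart, and the numbered hearts are described as the labels name them.

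The members and lists (63 isoform families, 21 functional groups, 18 cell type lists and 10 lists for spread) were chosen with earlier results of these data known. Named genes were the 20 highest with and without mt- symbols, all mt- symbols, isoform family members, the 30 highest SDs (predicted genes counted, not named), the 10 lowest SDs at a mean of at least 10 FPKM, up to 4 members of highest SD per list, and branched-chain amino acid genes by mean. Others were named after their values were seen. Alternatives were shares of reads, another pseudocount or filter, other scalings, counting variance removed, a CV of 0.35 and each heart left out. The samples labelled A-PDK1KO were not used here. Some results of these lists are not reported here.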

Additional observations from a re-analysis of the deposited data

Results flagged for a closer look

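In 25 of 179 values scanned, 1 heart stood apart from the other 4 by more than Dixon's 95% critical value of 0.71. Chance flags about 1 in 20 groups, but that rate does not hold here, since many of the values were chosen for their high SD over the same hearts and many move together. The heart that stood apart was replicate 1 in 10 cases, replicate 4 in 8, replicate 2 in 4, replicate 3 in 2 and replicate 5 in 1.

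Replicate 1 was high in blood genes. Haemoglobins held 0.578% of FPKM without mt- symbols there, against 0.01101% to 0.09749% in the others. Hbb-bs stood at 757.7 FPKM (others 16.43 to 131.5), Hba-a1 at 358.3 (7.135 to 66.93), Hbb-bt at 136.4 (2.502 to 26.1), Hba-a2 at 127.1 (1.396 to 20.7) and Alas2 at 11.65 (0.4305 to 2.216). The same heart was low for Actc1, at 3255 FPKM against 4068 to 4239, and for Slc25a4, at 2177 FPKM against 2317 to 2372. Mir208a at 9.118 FPKM and Mir99a at 6.653 FPKM were high in it, from 7 and 4 reads.

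Replicate 4 was low for mt-Nd1 (38670 FPKM, others 44239 to 46089), mt-Nd2 (26408, others 29952 to 31385) and mt-Tm (742.2, others 1006 to 1064). It was high for mt-Tl2 (169 FPKM) and Mir3100 (11.14 FPKM), both at 0 elsewhere. The clock output gene Dbp (12.48 FPKM, others 5.569 to 6.892), the smooth muscle myosin gene Myh11 (6.194, others 2.09 to 2.653) and the Idh2 share of isocitrate dehydrogenases (63.59%, others 57% to 58.35%) were also high there.

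Replicate 2 had the highest share of nuclear copies of mitochondrial sequence (4.927%, others 2.441% to 3.147%) and the highest Hamp (6.976 FPKM, others 0 to 1.366). Its energy transfer share was low (4.973%, others 5.174% to 5.255%), as was its Atp5g3 share of the c subunits (67.12%, others 68.83% to 69.12%). Replicate 3 was high for the ATP synthase share (3.002%, others 2.843% to 2.88%) and for mt-Td (10.63 FPKM, others 0 to 1.478). Replicate 5 was low for the Atp1b1 share of sodium pump beta subunits (71.09%, others 73.7% to 74.7%).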

How the results depend on the processing

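No paired analysis was possible because 1 group was used. Taken over reads in place of FPKM, the mitochondrial share was 37.8%, the share of the 10 highest 12.75% and the number of genes for 50% was 366. Among protein-coding genes the 10 highest held 16.6%. The 244 variable genes became 554 with a pseudocount of 0.1, 455 without the filter, 82 at a mean of at least 5 FPKM, 64 at 50 reads, 59 among protein-coding genes and 571 by a CV of at least 0.35. Leaving out each heart in turn gave a mitochondrial share of 54.0% to 55.6%, a share of the 10 highest of 19.19% to 20.05%, 146 to 155 genes for 50%, a median SD of 0.127 to 0.154 and 236 to 276 variable genes, of which 180 to 206 were among the 244. Of 60 leading isoform shares 44 moved by more than 1 SD when taken over reads. Depth limits the short and low entries: 18 of the 30 highest SDs rest on fewer than 50 reads per heart.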
